A study of Sus scrofa with 14 samples.

Results

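The aquaporins AQP4, AQP7 and AQP9 were followed in the oxyntic mucosa (OXY) and the pyloric mucosa (PYL) of the young pig. The 3 genes were taken as the rows of the array that the platform annotation pairs with 1 of these symbols alone, and each has 1 such row, among 10882 named genes and 27460 transcript rows. They were picked because their values differed between the mucosae in earlier results on the same arrays, so the difference between OXY and PYL is given for them as a description, without a test. The samples came from 7 unrelated male weaned pigs (Large White X Landrace, 5 to 6 weeks of age, 11.1 kg on average). All had been kept in single cages on a standard feed after weaning for 5 days and were sampled after a meal. From each pig 1 piece was cut from the oxyntic gland area along the greater curvature and 1 from the pyloric gland region near the sphincter, as transmural sections, so that layers under the mucosa can be part of a sample. Total RNA of each piece was hybridized on 1 whole-transcript array, 14 in all, and no pig received a treatment that another did not.

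Aquaporins are membrane channels built as tetramers in which each subunit carries its own pore. The classical members pass water. The aquaglyceroporins, AQP3, AQP7, AQP9 and AQP10, also pass glycerol and other small uncharged solutes. AQP4 is the water channel of the astrocyte end foot in the brain, and in the stomach of rodents and humans it lies in the basolateral membrane of parietal cells. AQP7 is known as the route by which glycerol leaves fat cells, and AQP9 as that by which it enters the liver cell, and AQP9 is also found in white blood cells. Amino acid and promoter sequences of the 3 genes are not used here.

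The arrays form 2 sets that do not share a scale. Pigs 1 to 3 (6 arrays) had a median log2 intensity over all rows of 4.83 to 4.92, and pigs 4 to 7 (8 arrays) one of 5.63 to 5.73. No pig was split over the sets, so a step between them cancels in the difference within a pig where it is equal in both mucosae, and only there. The pyloric arrays of pigs 4 and 7 correlated at 0.99 with each other and at 0.954 to 0.965 with those of pigs 5 and 6 (Spearman, over rows). On these 2 arrays the summed intensity (linear scale) of 4 smooth muscle markers was 8379 and 7508, against 1818.3 to 2858.5 on the other 5 pyloric arrays and 1163.9 to 4900.9 on the oxyntic ones. That of 6 markers of enteric neurons and glia was 962.8 and 357.5, against 95.7 to 194.2. Results that rest on pigs 4 and 7 are therefore given also without them. The proton pump gene ATP4A had log2 intensities of 12.08 ± 0.14 in OXY and 4.57 ± 0.29 in PYL (SD, n = 7), as the labels of the mucosae imply.

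AQP4 was high in OXY and close to the lower end of the array in PYL in every pig. In OXY its log2 intensity was 9.57, 8.09 and 8.81 in pigs 1 to 3 and 10.53, 9.84, 10.30 and 9.65 in pigs 4 to 7. In PYL it was 2.67, 2.51 and 2.55 in pigs 1 to 3 and 3.63, 3.19, 3.32 and 3.36 in pigs 4 to 7. The ranges of the 2 mucosae lay far apart. The lowest OXY value of AQP4 exceeded its highest PYL value by several log2 units, and groups with no overlap over the 7 pigs occurred in 1.3% of all rows. Within pigs the difference ran from 5.58 in pig 2 to 6.99 in pig 6, with a mean of 6.51 ± 0.50 log2 (SD, n = 7).

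AQP4 had opposite places on the arrays of the 2 mucosae. On the pyloric arrays only 7.56 to 16.2% of the rows had a lower value than AQP4, whereas on the oxyntic arrays 90.4 to 98.2% had. The 5th percentile of the rows on the pyloric arrays was 2.13 to 2.14 in pigs 1 to 3 and 2.99 to 3.02 in pigs 4 to 7. The deposited values carry no detection call, so how far AQP4 stood above background in PYL cannot be told. From the first set to the second, the mean of AQP4 in PYL stepped up by 0.79 log2, and the median of all rows on the pyloric arrays by 0.81. In OXY these steps were 1.26 and 0.80.

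**Figure D1:**
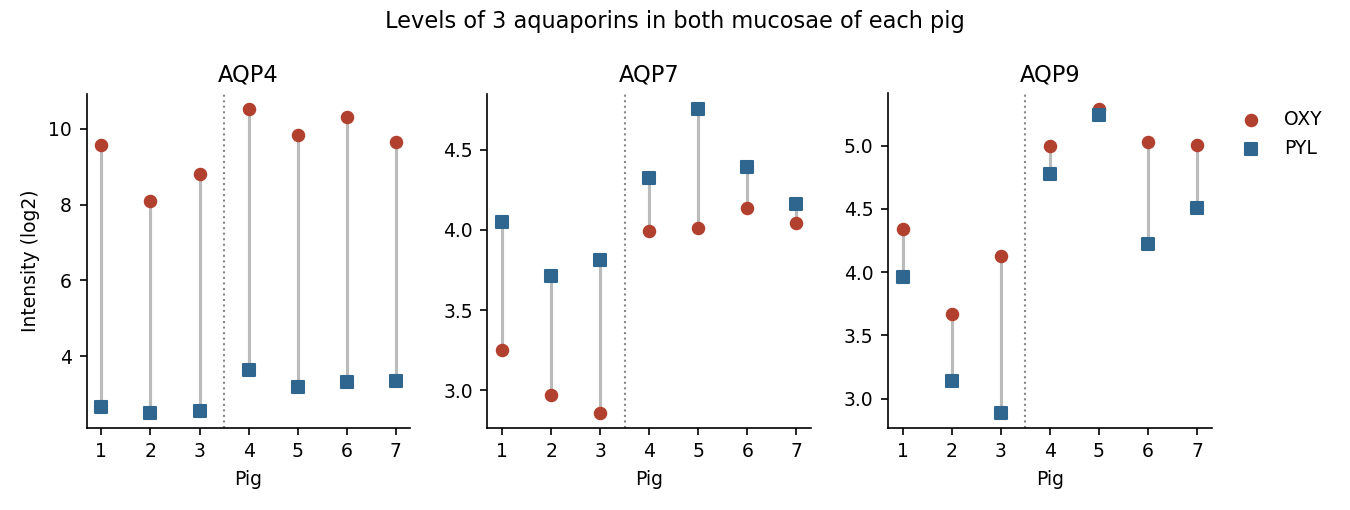
Log2 intensity of AQP4, AQP7 and AQP9 (vertical axes, a different scale in each panel) in OXY (circles) and PYL (squares) of pigs 1 to 7, with a line joining the 2 samples of a pig and a dotted line between the 2 array sets. AQP4 in OXY lies between 8.09 and 10.53 and in PYL between 2.51 and 3.63, AQP7 is lower in OXY and AQP9 higher in OXY in each pig.

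AQP7 was lower in OXY, by a much smaller margin. In OXY it was 3.25, 2.97 and 2.86 in pigs 1 to 3 and 3.99, 4.01, 4.14 and 4.05 in pigs 4 to 7 (log2 intensity). In PYL it was 4.05, 3.71 and 3.81 in pigs 1 to 3 and 4.32, 4.76, 4.39 and 4.16 in pigs 4 to 7. Over all pigs the 2 mucosae overlapped, because of the step between the sets, while within each set every PYL value of AQP7 was above every OXY value. The difference of OXY minus PYL was -0.80, -0.74 and -0.95 in pigs 1 to 3 and -0.33, -0.75, -0.26 and -0.11 in pigs 4 to 7. Its mean was -0.56 ± 0.32 log2 (SD, n = 7), that is 1.48-fold higher in PYL.

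AQP9 was higher in OXY in each pig, with an uneven margin. In OXY it was 4.34, 3.67 and 4.13 in pigs 1 to 3 and 5.00, 5.29, 5.03 and 5.01 in pigs 4 to 7 (log2 intensity). In PYL it was 3.96, 3.14 and 2.89 in pigs 1 to 3 and 4.78, 5.24, 4.22 and 4.51 in pigs 4 to 7. The mucosae overlapped within both sets, and the pyloric values spread wider within each set (1.07 and 1.02 log2) than the oxyntic ones (0.67 and 0.30). The difference of OXY minus PYL was 0.38, 0.53 and 1.24 in pigs 1 to 3 and 0.22, 0.05, 0.81 and 0.50 in pigs 4 to 7. Its mean was 0.53 ± 0.39 log2 (SD, n = 7), a 1.45-fold higher value in OXY, and pig 5 hardly differed between its mucosae.

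A difference of one sign in all 7 pigs, as in each of the 3 genes, was found in 13% of all rows (7.94% with OXY higher and 5.06% with PYL higher). By limma 11.3% of all rows passed between the mucosae, and 8.52% (towards OXY) and 5.11% (towards PYL) of the named genes. Since the 3 genes were picked on this contrast, nothing is read from their count. AQP7 had a low place on the arrays in both mucosae, with 18.4 to 26.9% of the rows below it in OXY and 26.0 to 38.5% in PYL. For AQP9 these shares were 32.8 to 44.4% in OXY and 19.1 to 43.7% in PYL. Whether signals of this height are above the background of the array cannot be told from the deposited values. As in any tissue sample, fewer cells of a type and less RNA per cell cannot be told apart for these genes.

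Whether the difference between the mucosae depended on the array set was tested for all rows with limma. This split was not used to pick the genes, but the same differences within pigs were, so the choice can favour small gaps. The difference of OXY minus PYL was 6.25 in pigs 1 to 3 and 6.71 in pigs 4 to 7 for AQP4, a gap between the sets of 0.46 log2 (SE 0.31, 95% interval -0.26 to 1.19, adjusted p = 0.54 from limma). For AQP7 it was -0.83 and -0.36, a gap of 0.47 (SE 0.17, interval 0.08 to 0.86, adjusted p = 0.42 from limma). For AQP9 it was 0.72 and 0.39, a gap of -0.32 (SE 0.26, interval -0.92 to 0.28, adjusted p = 0.60 from limma). The intervals are for each gene alone and are not adjusted over the rows. None of the 27460 rows (0%) passed this test, and 3197 had an unadjusted p under 0.05 in limma. That is a larger share than this threshold gives by chance alone, so the lack of calls does not show that the sets agree. With 3 and 4 pigs the intervals of AQP7 and AQP9 include gaps as large as their differences themselves. Without pigs 4 and 7 the mean differences were 6.48, -0.70 and 0.60 for AQP4, AQP7 and AQP9.

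The level of AQP4 in OXY had a wider range over pigs than the 5 genes whose pattern was most like it, a comparison that was not tested. Likeness was the Pearson correlation over the 14 arrays, after the mean of each array set had been subtracted from each gene, and is given as a description, since the arrays share pigs and the contrast of the mucosae. The 5 named genes nearest to AQP4 were TMEM92, a membrane protein (0.994), ATP4A (0.994), the potassium channel subunit KCNE2 (0.993), NDUFS1, a subunit of complex I of the respiratory chain (0.993), and the anion exchanger SLC26A7 (0.993), which carries chloride and bicarbonate across the basolateral membrane of parietal cells. In OXY, AQP4 spanned 1.48 log2 units around its set means, SLC26A7 0.98, TMEM92 0.81, KCNE2 0.67, ATP4A 0.40 and NDUFS1 0.28. AQP4 stood highest above its set mean in pig 1, by 0.75, where SLC26A7 was also highest, by 0.51. TMEM92 (0.36) and KCNE2 (0.26) were highest in that pig too. In pig 2 these 4 genes were lowest within the first set, at -0.73 for AQP4, -0.46 for SLC26A7, -0.45 for TMEM92 and -0.32 for KCNE2. ATP4A was at -0.01 and -0.04 in these 2 pigs. Its values of 11.93 to 12.33 in OXY lie near the highest of any row on these arrays (12.58 to 12.89), and the part of this in its narrow range was not tested. The summed smooth muscle signal in OXY was 1163.9, 4840.5 and 3500.6 in pigs 1 to 3 and 4900.9, 1720.9, 1391.6 and 1444.7 in pigs 4 to 7. Within pigs 1 to 3 it was lowest in pig 1, with the highest AQP4, and highest in pig 2, with the lowest AQP4, whereas within pigs 4 to 7 it was highest in pig 4, where AQP4 was also highest. Its part in the AQP4 values was not tested.

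**Figure D2:**
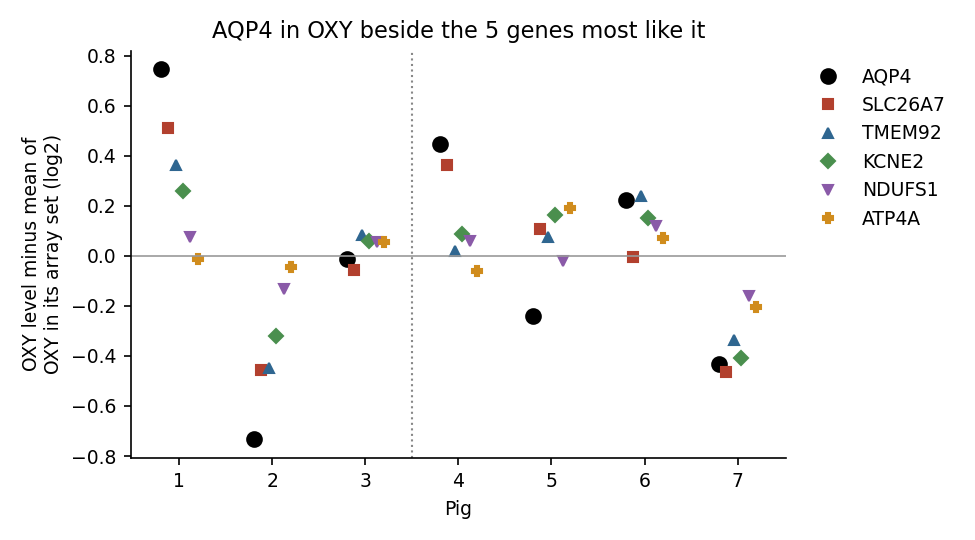
Log2 intensity in OXY minus the mean of OXY in the same array set (vertical axis) for AQP4 and the 5 genes nearest to it, in pigs 1 to 7, with a dotted line between the sets and points of a pig set side by side. AQP4 runs from -0.73 in pig 2 to 0.75 in pig 1, ATP4A from -0.20 to 0.19.

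Genes of the parietal cell, the acid-secreting cell of the oxyntic gland, changed together between the mucosae. Here and below, the genes of a list are those with a row named by their symbol alone, and the other listed genes are not analysed here. Of 18 listed genes 12 had such a row, and all 12 were more expressed in OXY (limma, adjusted p under 0.05), where 6.88% of all rows were. Their median change was 4.50 log2, against -0.01 over all rows. This list, like the others, was made with earlier results of these data known, so its count can be partly fixed by the choice. The study itself had reported ATP4A, KCNE2, KCNJ13 and KCNJ15 as higher in OXY from these arrays. AQP4 is not a member of that list, and ATP4A, KCNE2 and SLC26A7 on it are also among the genes picked for likeness to AQP4. Its difference stands beside 7.52 (SE 0.13, adjusted p = 2.7e-08 from limma) for ATP4A, 6.25 (SE 0.13, adjusted p = 9.4e-08) for KCNE2, 5.93 (SE 0.14, adjusted p = 1.5e-07) for ATP4B and 5.13 (SE 0.13, adjusted p = 2.1e-07) for TRIM50. Of 7 listed chief cell markers 3 had a named row, and these 3 were also higher in OXY, with a median of 0.90 over the 3. The transcription factor BHLHA15 changed by 2.87 (SE 0.18, adjusted p = 4.9e-05), PGC by 0.90 and PGA5 by 0.37.

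AQP4 is held at the membrane of astrocytes and muscle fibers by the dystrophin complex, and 4 of 10 listed genes of this scaffold and its partners had a named row. None of them passed in limma, where 11.3% of all rows did (1 had an unadjusted p under 0.05, and 1 by the methods' repeated-measures test). DMD, which encodes dystrophin, had a change of -0.34 (SE 0.57), which turned to 0.54 without pigs 4 and 7, and its relative UTRN one of -0.04 (SE 0.09). TRPV4, a calcium channel that opens with cell swelling, had 0.26 (SE 0.14), and 0.05 without pigs 4 and 7. The sarcoglycan SGCD had -0.55 (SE 0.16, adjusted p = 0.065 from limma). Enteric glia is another cell that could hold AQP4. Of 6 genes of enteric neurons and glia 0 passed in limma, against 11.3% of all rows (0 also at an unadjusted p under 0.05 by either test). Without pigs 4 and 7, whose pyloric arrays had the high sums of this list, 1 passed, the receptor RET, with 0.48 towards OXY (limma, adjusted p = 0.047). GFAP, the glial filament, had a change of -0.05 (SE 0.14), and 0.14 without these pigs, and SOX10, the transcription factor of enteric glia, of 0.02 (SE 0.09).

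Among the other 8 aquaporins with a row of their own none passed the test over all pigs, whereas 6.88% of all rows passed towards OXY and 4.46% towards PYL. At an unadjusted p under 0.05, limma gave 2 of the 8 and the methods' repeated-measures test 1, all towards PYL. AQP1 and both AQP12 genes are not analysed here. Those with an OXY minus PYL difference beyond 0.5 log2 were AQP3, AQP5 and AQP11, each towards PYL. The other 5 lay between -0.07 and 0.05.

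AQP11, a channel of the membranes of the endoplasmic reticulum, was nearest to the threshold. Its log2 intensity was 3.97, 3.69 and 3.94 in OXY of pigs 1 to 3 and 5.11, 5.11, 5.30 and 5.15 in pigs 4 to 7. In PYL it was 4.71, 4.68 and 5.14 in pigs 1 to 3 and 5.01, 5.77, 5.76 and 5.21 in pigs 4 to 7. Its change was -0.57 (SE 0.16, adjusted p = 0.0502 from limma), with PYL higher in 6 of 7 pigs. Without pigs 4 and 7 it was -0.81 (adjusted p = 0.0042 from limma) and PYL was higher in each of the 5 pigs. Within pigs 1 to 3 it was -0.98 (adjusted p = 0.028) and within pigs 4 to 7 -0.27 (adjusted p = 0.35).

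AQP3, the aquaglyceroporin of the basolateral membrane of surface epithelia, differed in its sign in pigs 4 and 7. In OXY it was 8.14, 7.22 and 7.71 in pigs 1 to 3 and 9.14, 8.28, 7.86 and 9.93 in pigs 4 to 7 (log2 intensity). In PYL it was 9.57, 9.70 and 9.67 in pigs 1 to 3 and 9.07, 10.31, 8.93 and 8.54 in pigs 4 to 7. Its change of -1.07 (SE 0.44, adjusted p = 0.17 from limma) became -1.79 without pigs 4 and 7 (adjusted p = 0.0014), a fit in which 6.71% of all rows passed towards OXY and 5.98% towards PYL. Without pig 7 alone AQP3 also passed (adjusted p = 0.019). In pig 4 it was 0.07 and in pig 7 1.38, against -2.48 to -1.07 in the other pigs. AQP5, the apical water channel of secretory glands, also had its sign turned there, with 0.19 in pig 4 and 2.08 in pig 7 against -2.66 to -0.32 in the others. Its change was -0.62 (SE 0.49, adjusted p = 0.48 from limma), and -1.33 without pigs 4 and 7 (adjusted p = 0.038). One more row of the array is annotated to AQP6 and AQP5 together. Its differences ran from -2.64 to 2.09, close to the -2.66 to 2.08 of the AQP5 row, so these 2 rows are not counted as separate measurements. The pyloric arrays of pigs 4 and 7 are those with the high smooth muscle signal given above, whose part in these values was not tested.

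**Figure D3:**
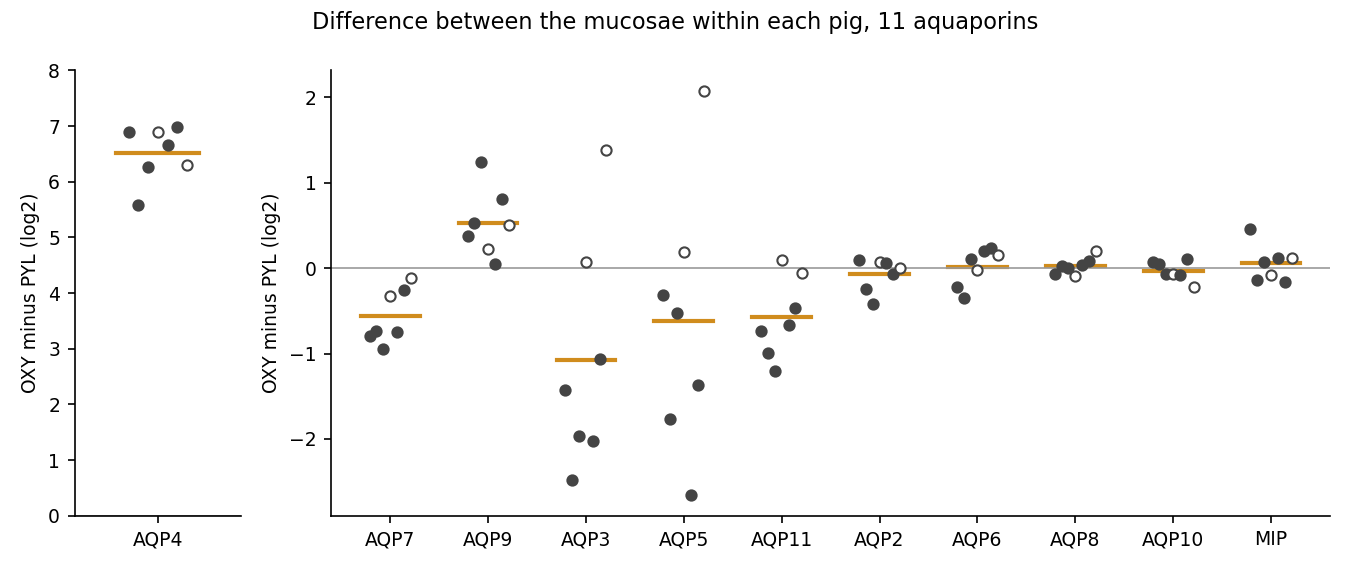
Log2 intensity of OXY minus that of PYL (vertical axes) within each of the 7 pigs for AQP4 (left, with its own scale) and the 10 other aquaporins with a row of their own (right), with open points for pigs 4 and 7 and a bar at the mean of the 7. AQP4 lies between 5.58 and 6.99, and for AQP3 and AQP5 both open points are above 0 while all filled points are below it.

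MIP (the water channel of the lens fiber), AQP2 (the vasopressin-regulated channel of the kidney collecting duct), AQP6 (a channel of kidney intercalated cells), AQP8 (a channel for water and ammonia) and AQP10 (an aquaglyceroporin of the intestine) had small differences of both signs. On the oxyntic arrays 13.7 to 25.5% of the rows lay below MIP, and on the pyloric arrays 15.3 to 19.0%. Their changes of 0.05 (SE 0.08) for MIP, -0.07 (SE 0.08) for AQP2, 0.02 (SE 0.08) for AQP6, 0.03 (SE 0.06) for AQP8 and -0.03 (SE 0.06) for AQP10 had adjusted p between 0.62 and 0.94 from limma. In each of these genes OXY and PYL overlapped.

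With set means subtracted, the aquaporins most like AQP7 over the arrays were AQP11 and AQP3. Its Pearson correlation over 14 arrays was 0.86 with AQP11 (rank 118 among the named genes) and 0.79 with AQP3 (rank 281). With AQP4 it was -0.79 and with AQP9 -0.34, signs that follow the contrast these 3 genes were picked on. Without subtracting set means it was 0.94 with AQP11, 0.65 with AQP3, -0.40 with AQP4 and 0.47 with AQP9. AQP2, AQP6, AQP8, AQP10 and MIP then had 0.69 to 0.81, above AQP3. AQP3 and AQP7 are neighbours in the RefSeq annotation of the pig genome (Sscrofa11.1). The 5 named genes nearest to AQP7 were the thiamine transporter SLC19A3 (0.98), SEPT8, a septin of the cytoskeleton (0.95), KIAA0319 (0.95), FAM45A (0.94) and DGAT2, which joins the last fatty acid to triacylglycerol (0.94). In pigs 4, 6 and 7, in which AQP7 differed least between the mucosae (-0.33, -0.26 and -0.11), SLC19A3 also differed least (-0.70, -0.44 and -0.22). In pigs 1, 2, 3 and 5 SLC19A3 had -1.82, -1.35, -1.62 and -1.03. As SLC19A3 was picked for its likeness to AQP7, this agreement over pigs is built into the choice. Without subtracting set means, SLC19A3 ranked 3852 among the named genes by likeness to AQP7. The mean difference of SLC19A3 was -1.02, given with no test because a gene picked for its likeness to AQP7 shares the contrast AQP7 was picked on.

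**Figure D4:**
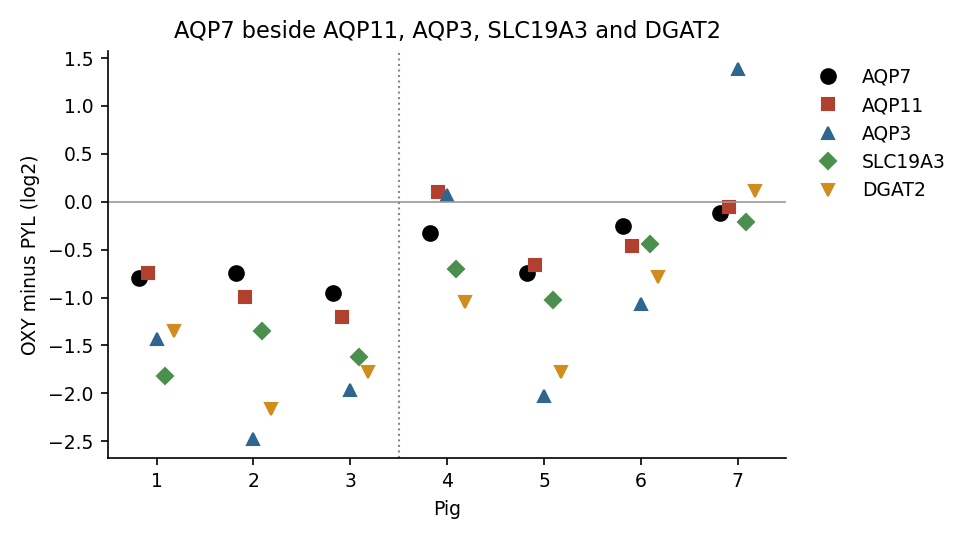
Log2 intensity of OXY minus that of PYL (vertical axis) in pigs 1 to 7 for AQP7, the aquaporins AQP11 and AQP3, and SLC19A3 and DGAT2, which are 2 of the 5 genes nearest to AQP7, with a dotted line between the array sets and points of a pig set side by side. AQP7 is between -0.95 and -0.11, and the points of AQP3 in pigs 4 and 7 are above 0.

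Genes that make and break down triacylglycerol use or free the glycerol that AQP7 and AQP9 carry. Those of them that passed the threshold were higher in PYL. The 1 gene called towards OXY, PPARA, is a nuclear receptor. Of 13 genes of glycerol and the lipid droplet, limma found 3 (23.1%) higher in PYL and 1 (7.7%) in OXY. Over all rows these shares were 4.46 and 6.88%. The other 9 genes missed the threshold. The median change was -0.16 log2. DGAT2 had 7.93 ± 0.66 in OXY and 9.18 ± 0.58 in PYL (SD, n = 7). Its mean difference was -1.26, and 6 of 7 pigs had the higher value in PYL. As one of the genes nearest to AQP7 it is not independent of the choice of AQP7, so no test is given for it. Its place among the 3 genes higher in PYL is partly built into that choice. The hormone-sensitive lipase LIPE, which frees glycerol and fatty acids, had -0.56 (limma, SE 0.11, adjusted p = 0.014), and all 7 pigs had more of it in PYL. The phosphatidate phosphatase LPIN1 had -0.32 (SE 0.08, adjusted p = 0.030 from limma), and its call ended without pig 1, 3, 4, 6 or 7 (adjusted p up to 0.0869 without pig 6). For PPARA, a nuclear receptor of fatty acid use, the change was 1.10 towards OXY (limma, SE 0.17, adjusted p = 0.0051), seen in 6 of 7 pigs. The cytosolic glycerol phosphate dehydrogenase GPD1 had 0.09 (SE 0.19) and PCK1, an enzyme of glycerol synthesis from other substrates, -0.16 (SE 0.17).

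Markers of fat cells, liver cells and neutrophils, known for AQP7 or AQP9 elsewhere, were read against the 4.46% of all rows that passed towards PYL and the 6.88% towards OXY. Of 7 markers of adipocytes, 1 was higher in PYL (LIPE, also in the list above) and 6 did not pass, with a median change of -0.36. Without pig 7, or without pigs 4 and 7, 2 passed towards PYL. PLIN1, the lipid droplet coat of fat cells, was at 5.19 in OXY and 5.55 in PYL (change -0.36, SE 0.15, adjusted p = 0.17 from limma), and leptin (LEP) at 3.34 and 3.42. The summed intensity (linear scale) of the 7 markers was 1421 to 2053 in OXY and 1614 to 2456 in PYL. This sum mostly follows CFD, by far the brightest of them (10.58 in OXY and 10.56 in PYL, log2), and says little of the others. Of 6 genes of hepatocytes, 1 was higher in PYL. This was the protease inhibitor SERPINA1, with -2.54 (SE 0.55, adjusted p = 0.020), and its call ended without pig 1, 3, 5 or 6 (adjusted p up to 0.0597 without pig 5). APOB, FGA and FGB had means between 3.01 and 3.61 in both mucosae. The apolipoprotein APOA1 was at 6.86 in OXY and 6.42 in PYL (change 0.44, SE 0.18, adjusted p = 0.18 from limma). Without pigs 4 and 7 it passed towards OXY, with 0.71 (adjusted p = 0.0087 from limma). SERPINA1 passed towards PYL in the same fit, with -3.39 (adjusted p = 0.0015 from limma). Of 5 neutrophil genes 0 passed in limma (0 also at an unadjusted p under 0.05 by either test). Their means of 3.23 to 4.00 lie low on the arrays, which limits what this lack of calls can show. Their summed intensity was 39.7 to 42.5 in OXY and 38.3 to 52.8 in PYL of pigs 1 to 3. In pigs 4 to 7 it was 75.5 to 84.4 in OXY and 66.5 to 84.6 in PYL. The part of these 3 cell types in the AQP7 and AQP9 values was not tested.

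The 5 named genes nearest to AQP9 were ND1, a mitochondrial subunit of complex I (0.87), CALCRL, the receptor of adrenomedullin and calcitonin gene-related peptide (0.86), MNAT1 of the general transcription machinery (0.86), CNIH3 (0.86) and the DNA repair enzyme APEX1 (0.85). CALCRL is known from endothelium. Of 5 endothelial markers 4 were higher in OXY (6.88% of all rows were), with a median change of 0.64, and these were KDR with 1.17 (SE 0.10, adjusted p = 2.5e-04 from limma), TEK with 0.91 (SE 0.12), VWF with 0.64 (SE 0.15) and PECAM1 with 0.43 (SE 0.11). Without pig 1, 2, 3, 5 or 6 the number fell to 2. In pig 5, where AQP9 was nearly equal in both mucosae (0.05), CALCRL had -0.22. In pig 3, where AQP9 differed most (1.24), CALCRL had 1.06, but in pig 2 it had 1.02 beside 0.53 for AQP9. CALCRL was picked for its likeness to AQP9, so agreement over pigs is built into the choice. The part of endothelium in the AQP9 values was not tested. The mean difference of CALCRL was 0.48, given with no test for the same reason as that of SLC19A3. Of 10 markers of macrophages and dendritic cells, which can also hold AQP9, 5 were higher in PYL (4.46% of all rows were) and none in OXY. Their median change was -0.28. Examples were TYROBP with -0.45 (SE 0.11) and FLT3 with -0.40 (SE 0.07). LYZ, also on the list, had -1.35 (SE 0.27), but the study groups it with genes of epithelial protection. The count towards PYL was 2 with the arrays centered on their medians or without pig 3 or 6. It was 3 without pig 5, without pig 7, or without both pig 4 and pig 7. Within pigs 1 to 3 alone it was 1, and within pigs 4 to 7 alone 0. The part of these cells in the AQP9 values was not tested.

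In 7 of the lists none of the 30 genes passed in limma over all pigs, against 11.3% of all rows. These were the surface mucous cell, the AQP4 scaffold, enteric neurons and glia, smooth muscle, skeletal muscle, red blood cells and neutrophils. In them 5 genes had an unadjusted p under 0.05 from limma and 4 by the methods' repeated-measures test. Without pigs 4 and 7, RET (above) and the surface mucous gene GKN1 passed, GKN1 with -0.27 (limma, adjusted p = 0.039), and without pig 2 1 scaffold gene and 1 smooth muscle gene passed towards PYL. The median change was -0.56 for smooth muscle. In it TAGLN had -0.45 (SE 0.30), and -0.06 without pigs 4 and 7, and CNN1 had -0.71 (SE 0.41), and -0.28 without them.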

How the data were processed

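Total RNA of OXY and PYL of 7 pigs was measured with 1 Affymetrix whole-transcript array (Porcine Gene 1.1 ST) for each mucosa of each pig. The authors applied a Robust Multichip Analysis to the scanned arrays in Affymetrix Expression Console, and the sources used here give no version of it. They deposited linear intensities, 1 per transcript row and array. Their log2 was taken here with no second normalization. The number of arrays limits the precision. The fit to every row used limma 3.58.1 (R 4.3.3) and held the pig as a term, because both samples of a number came from 1 animal, the repeated measure in the study's model. Benjamini-Hochberg adjustment covered all 27460 rows, and the threshold was 0.05. Deviations of the 2 arrays of a pig from the mucosa means correlated at 0.02 to 0.62 over rows, and at -0.03 to 0.62 when means were taken within each array set. The pig term rests on the shared animal, not on these values. Errors given as SE are those of limma. A second model with a term for the array set tested whether the change differed between sets.

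Rows were named from the platform annotation (11939 rows with 1 symbol, 416 with several, 15105 with none), and a gene with several rows was represented by the one with the highest mean. The members and the 15 gene lists were chosen with earlier results of these data known. Named are AQP4, AQP7 and AQP9, the other aquaporins, the 5 genes most correlated with each of the 3, from every list up to 4 called genes with the greatest change in its main direction and the greatest in the other, ATP4A and RPL4. Other list genes in the text (GPD1, PCK1, PLIN1, LEP, CFD, APOB, FGA, FGB, DMD, UTRN, SGCD, TRPV4, GFAP, SOX10, RET, GKN1, APOA1, TAGLN and CNN1) were added after their values were seen. The lists were aquaporin, parietal cell, chief cell, surface mucous cell, glycerol and lipid droplet, adipocyte, AQP4 scaffold, enteric neuron and glia, smooth muscle, skeletal muscle, endothelial, red blood cell, neutrophil, macrophage and dendritic cell, and hepatocyte. The procedure was tested on simulated data with known changes. It recovered 64% of the rows changed by 0.5 log2 and 90% of those changed by 1.0, so changes near 0.5 can be missed. Of its 186 calls, 9 were among rows that were not changed. Alternatives were the normalization, a filter on dim rows, the pig term, the array sets and each pig left out.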

Additional observations from a re-analysis of the deposited data

Results flagged for a closer look

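Of 132 groups of 7 values examined (the levels in OXY, the levels in PYL and the differences within pigs of each named gene), 2 held a pig far from the others, where chance alone flags about 1 in 20. The difference of PPARA between OXY and PYL was -0.01 log2 in pig 7, against 1.00 to 1.60 in the other pigs. The difference of TMEM92, the gene nearest to AQP4, was 1.67 in pig 2, against 2.15 to 2.48 in the others, and AQP4 also had its smallest difference, 5.58, in that pig. No value of AQP4, AQP7 or AQP9 stood out in this way. The levels were examined over both array sets together, and the step between the sets widens their range. The lack of flagged levels therefore shows little.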

How the results depend on the processing

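The differences of AQP4, AQP7 and AQP9 kept their sign and moved by less than 1 SD under every alternative that gave a value, from 6.25 to 6.71, from -0.83 to -0.36 and from 0.39 to 0.72 log2. Without 1 pig they lay at 6.43 to 6.67, -0.64 to -0.50 and 0.41 to 0.61. With the third of rows of lowest mean left out, AQP7, MIP, AQP6, AQP8 and AQP10 had no value. Without the pig block in the model the differences of the 3 were the same (6.51, -0.56 and 0.53), and the calls numbered 326 towards OXY and 150 towards PYL, against 1888 and 1226 with it. Within pigs 1 to 3 alone these counts were 665 and 562 and within pigs 4 to 7 alone 686 and 289. The methods' repeated-measures test gave 1386 and 637 after adjustment and 3529 and 2958 without it. Leaving out 1 pig gave 1386 to 1705 calls towards OXY and 690 to 1232 towards PYL. Of all calls, the share towards OXY was 60.6% as deposited, 70.0% with each array centered on its median, 65.8% scaled to RPL4 and 62.1% after quantile normalization.

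No other aquaporin passed towards OXY under any alternative. Towards PYL the number was 1 when the arrays were scaled to RPL4, when the lowest rows were left out and by the methods' test without adjustment (AQP11 each time). It was 2 within pigs 1 to 3 alone (AQP3 and AQP11) and 3 without pigs 4 and 7 (AQP3, AQP5 and AQP11). Leaving out 1 pig gave 0 to 2, with 1 without pig 4 (AQP11) and 2 without pig 7 (AQP3 and AQP11). The cause was not tested. Of the 5 genes nearest to AQP4, AQP7 and AQP9, 2, 1 and 1 stayed among the nearest 5 without subtracting set means, and 1, 2 and 1 with Spearman correlation. The AQP4 values in PYL and the AQP7 values lie near the lower end of the arrays, which limits how far their differences can be read.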
